A study of Mus musculus with 4 samples.

Results

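The leptin receptor gene Lepr and 9 adipogenic or reticular stromal genes were followed in 2 single-cell libraries of mouse bone marrow stroma. The genes were found by symbol, and all 10 were among the 31053 genes of the count tables: Lepr, Adipoq, Fabp4, Pparg, Cebpa, Cebpb, Lpl, Apoe, Ebf3 and Foxc1. Cells of the MSC libraries had been sorted from collagenase-treated tibia and femur of mice aged 6 to 8 weeks, as cells without CD45 and CD71, with little or no Ter119, and with Sca-1 and CD140a on the surface. Control mice had the genotype Vav1-Cre/+STAT5ab+/+ and STAT5 KO mice the genotype Vav1-Cre/+STAT5abfl/fl, so both groups carried the Cre transgene. The Vav1 promoter drives Cre in blood cells, so the stromal cells are not the cells in which the deletion was aimed for. Each group was 1 library, the number of mice behind each MSC library is not given in the sources used here, and 2 further libraries held KLS cells (lineage-negative, c-Kit-positive, Sca-1-positive blood progenitors) of mice aged 8 to 12 weeks, of the same 2 genotypes.

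With 1 library per group no test was possible, and intervals given here are 95% intervals for counting error only, which leave out differences between mice and preparations. They are exact Poisson intervals for levels, exact Clopper-Pearson intervals for shares and exact conditional binomial intervals for ratios. Those for levels, ratios and shares of UMIs count each UMI as independent, so they also leave out differences between cells and are too narrow where few cells hold many UMIs. The control library held 672 barcodes and 1874023 unique molecular identifiers (UMIs, each counting 1 captured RNA molecule), and the STAT5 KO library 425 barcodes and 1270763 UMIs. Among these, 42 barcodes occurred in both libraries, and the copy with fewer UMIs was left out, which removed 31 control and 11 STAT5 KO barcodes with 1.47% and 0.621% of the UMIs. After filters, 579 control cells (median 2744 UMIs) and 378 STAT5 KO cells (median 2496 UMIs) were kept. Barcodes present in both libraries remained for 11 control cells and for 30 STAT5 KO cells, and these 30 held 28.3% of the kept STAT5 KO UMIs. Stat5a and Stat5b stood at 68.5 and 60.8 UMIs per 1000000 UMIs (CPM) in the KLS control library and at 6.74 and 4.49 CPM in the KLS STAT5 KO library. In the MSC libraries Stat5a was at 40.4 CPM in control against 55.4 CPM in STAT5 KO, and Stat5b at 51.2 and 46.3 CPM.

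Reticular cells with abundant CXCL12 are perivascular stromal cells of the marrow that carry the leptin receptor and feed blood stem cells with CXCL12 and stem cell factor. They are known to include progenitors of marrow fat cells, and they express several adipocyte genes without storing fat. In fat cell differentiation the factors C/EBPβ, C/EBPα and PPARγ act in sequence on genes such as Adipoq, Fabp4 and Lpl, while the factors FOXC1 and EBF3 are known to keep reticular cells in their niche-forming state.

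The members were left out of the clustering, so that their levels by cluster were not what made the clusters. Of 11 clusters of the kept cells, 1 was CXCL12-abundant reticular-like, with 107 control and 56 STAT5 KO cells (18.5% and 14.8% of the kept cells). It was led by Hp, Adipoq, Esm1, Gdpd2, Cxcl12, Kng1, Kng2, Kitl, Trf and Vcam1, of which 6 were markers listed for the class. The cells had been sorted for Sca-1, but Ly6a, which encodes it, gave 3 UMIs in the control cells of this cluster and 2 in the STAT5 KO cells (7.41 and 10.1 CPM), against 2147 and 2207 CPM in the fibroblast-like cluster. Pdgfra, which encodes CD140a, was at 341 and 324 CPM in the reticular-like cluster. Defining markers of mature fat cells were at or near 0: Cidec, Retn and Lep had no UMI in either library, and the 8 markers of that class summed to 24 control and 34 STAT5 KO UMIs over all kept cells. Of 9 macrophage markers 4 were detected in control and 2 in STAT5 KO, with 740 and 407 summed UMIs, and C1qa, C1qb, C1qc, Adgre1 and Cd5l were at 0 in both libraries. In the reticular-like cluster these markers summed to 661 and 357 UMIs, of which 641 and 348 were of Vcam1, which is also a reticular marker.

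Adipoq, which encodes the hormone adiponectin, was almost confined to the reticular-like cluster. The cluster held 646 of 649 control UMIs (99.5%, interval 98.7% to 99.9%) and all 265 STAT5 KO UMIs (interval 98.6% to 100%). Cxcl12 itself had 96.5% and 95% of its UMIs there, but it was not left out of the clustering and is a marker that named the cluster. The factor gene Ebf3 followed with 88.7% and 91.5%. Lepr was less restricted, with 82.7% of control UMIs (79.9% to 85.2%) and 75.9% of STAT5 KO UMIs (71.3% to 80.1%). For Cebpa the shares were 80.9% and 83.6%, and for Lpl, the lipase that frees fatty acids from lipoproteins, 75.6% and 84.2%. For Apoe, the apolipoprotein that carries cholesterol, they were 77.9% and 71.1%. Foxc1 had 64.9% and 45.5% of its UMIs in the cluster, and Cebpb, which is also an early response gene of many cell types, had 46.4% and 37.7%. Pparg was counted 20 times in control and 19 times in STAT5 KO, of which 16 and 17 UMIs lay in the cluster.

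**Figure D1:**
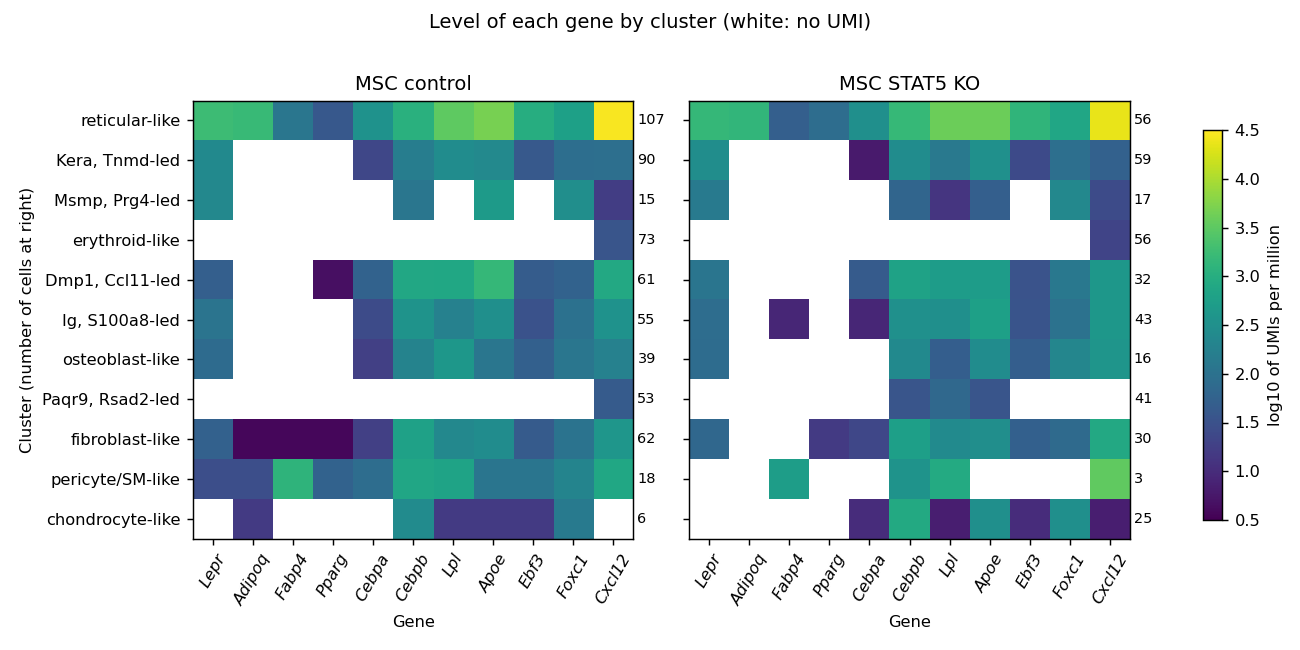
Level of each member and of Cxcl12 in each of 11 clusters (rows, with the number of cells at the right of each panel), as the log10 of CPM, in the control library (left) and the STAT5 KO library (right); white means no UMI. The reticular-like row is the brightest for each gene but Fabp4 in both panels and Pparg in the control panel (2 UMIs), which are brightest in the pericyte/smooth muscle-like row, and the erythroid-like row holds no UMI of any member.

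Beside the reticular-like cluster, Lepr was highest in a cluster of 149 cells led by Kera, Tnmd, Fmod and Scx, genes known from tendon, where it reached 254 CPM (201 to 316) in the control cells and 289 CPM (212 to 384) in the STAT5 KO cells. The reticular-like cluster had 1719 CPM (1594 to 1852) and 1469 CPM (1305 to 1648), and these intervals do not overlap with those of the cluster led by Kera. Over both libraries Lpl and Apoe came next in a cluster of 93 cells led by Dmp1 and Ccl11, with 697 and 1174 CPM, and Lpl stood at 685 CPM in the pericyte/smooth muscle-like cluster with an overlapping interval. For Cebpb and Foxc1 the order depended on the library. In control, Cebpb was at 798 CPM in the cluster led by Dmp1, at 738 CPM in the pericyte/smooth muscle-like cluster and at 268 CPM in the chondrocyte-like cluster. In STAT5 KO it was highest after the reticular-like cluster in the chondrocyte-like cluster, at 857 CPM, with 645 CPM in the cluster led by Dmp1 and overlapping intervals. Foxc1 was at 299 and 233 CPM in a cluster led by Msmp and Prg4 and at 134 and 313 CPM in the chondrocyte-like cluster, against 593 and 724 CPM in the reticular-like cluster.

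Fabp4, the fatty acid binding protein of fat cells and of small vessels, departed from the other members. Its level was highest in the pericyte/smooth muscle-like cluster, with 44 UMIs in 9 of 18 control cells (1249 CPM, 908 to 1677) and 3 UMIs in 2 of 3 STAT5 KO cells (533 CPM, 110 to 1559). In the reticular-like cluster 48 control UMIs came from 4 of 107 cells, 26 of them from 1 cell, and 10 STAT5 KO UMIs came from 4 of 56 cells. At a finer clustering (Leiden resolution 2) most reticular-like cells fell into a cluster led by genes that include Kng1 and Cxcl14 (45 and 27 cells) and another that Cxcl10 and Cxcl9 lead (54 and 27 cells). All 48 of the control UMIs of Fabp4 and 8 of the 10 STAT5 KO UMIs lay in the second, where Pparg gave 13 control and 9 STAT5 KO UMIs against 3 and 8 in the first. The other members were present in both, with Lepr at 2036 and 1656 CPM in the first and 1686 and 1371 CPM in the second.

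The starts of 3 members are shown because these genes differ in how closely their RNA was tied to the reticular-like cluster (Adipoq almost wholly, Lepr mostly) or in how rarely it was counted there (Pparg). The 250 bases before a RefSeq start (GRCm38.p6, plus strand, 5′ to 3′) were searched on both strands for TTGCNNAA, a pattern of C/EBP sites, and for CCAAT. Capitals mark matches to either pattern. Lepr had another window (chr4:101717656-101717905), which is not printed and held no match to either pattern.
Adipoq, chr16:23146286-23146535: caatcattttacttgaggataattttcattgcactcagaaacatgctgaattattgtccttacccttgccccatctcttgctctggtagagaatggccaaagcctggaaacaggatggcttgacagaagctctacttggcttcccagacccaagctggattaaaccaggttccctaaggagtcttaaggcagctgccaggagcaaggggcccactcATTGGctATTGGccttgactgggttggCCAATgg
Lepr, chr4:101717157-101717406: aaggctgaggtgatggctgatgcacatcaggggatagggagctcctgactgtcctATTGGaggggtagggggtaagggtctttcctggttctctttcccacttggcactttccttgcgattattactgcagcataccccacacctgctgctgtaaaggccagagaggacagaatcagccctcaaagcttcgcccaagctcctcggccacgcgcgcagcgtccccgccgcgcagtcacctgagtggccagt
Pparg, chr6:115421816-115422065: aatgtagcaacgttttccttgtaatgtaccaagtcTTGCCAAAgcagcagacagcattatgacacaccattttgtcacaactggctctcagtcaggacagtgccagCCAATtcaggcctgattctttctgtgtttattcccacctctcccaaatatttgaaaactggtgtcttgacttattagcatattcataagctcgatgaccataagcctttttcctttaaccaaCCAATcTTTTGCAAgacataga
The Pparg window is that of its most downstream start in the table, known as the start of the form made in fat cells, and counts from the 3′ end of RNA do not tell its starts apart. It held 2 matches to TTGCNNAA, beginning 215 and 16 bases before the start, and was the only 1 of 13 windows of 8 members with a match, against 9.56% of 32851 windows of all genes. CCAAT was found in 5 of the 13 windows, including 3 matches in that of Adipoq, and in 33.8% of all windows. TTCNNNGAA, a pattern of STAT5 sites, was found in none of the 13 windows and in 7.02% of all windows. CCCNNGGG, a pattern of EBF sites, was found in 4 of the 13 windows (1 of Cebpb, 2 of Apoe and 1 of Ebf3) and in 11.8% of all windows. Fabp4 and Lpl had no entry. A match is a description of letters and not of a bound site.

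Summed over all kept cells, 7 of the 10 members had a lower level in STAT5 KO than in control, and 5 of these were called lower: Lepr, Adipoq, Fabp4, Cebpa and Apoe. A gene was called when its level differed by at least 1.5-fold and the counting interval of the ratio left out 1. No member was called higher. Of 10168 genes with at least 20 UMIs, 6.32% were called lower and 5.12% higher, and their median log2 ratio was -0.07, against a median of -0.45 over the 10 members. In such sums fewer cells of a type and less RNA per cell cannot be told apart. The reticular-like cluster held 23.0% of the kept UMIs in control and 16.3% in STAT5 KO. Levels within that cluster are given further below, and the part of its share in these ratios was not tested.

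Lepr (chr4:101717404-101815352, plus strand, GRCm38) was at 479 CPM (447 to 512) in control against 316 CPM (285 to 349) in STAT5 KO, a log2 ratio of -0.60 (-0.78 to -0.42). That is 1.52-fold lower, just past the limit of 1.5-fold. Adipoq (chr16:23146536-23158028, plus strand) was at 369 CPM (341 to 399) and 219 CPM (193 to 247), with a log2 ratio of -0.75 (-0.96 to -0.54). In both genes the control level lay above the STAT5 KO level with intervals that do not overlap. Cebpa, the factor gene of terminal fat cell differentiation, was at 98.4 CPM and 60.3 CPM, with a log2 ratio of -0.71 (-1.12 to -0.30). Apoe was at 1426 CPM and 921 CPM, with a log2 ratio of -0.63 (-0.73 to -0.53). These 4 ratios lie near that of Cxcl12, which was at 6808 and 4070 CPM (log2 ratio -0.74). Fabp4 (chr3:10204088-10208576, minus strand) was at 52.9 CPM (42.7 to 64.8) from 93 UMIs and at 11.6 CPM (6.33 to 19.4) from 14 UMIs, and its log2 ratio of -2.19 (-3.12 to -1.37) was the furthest from 0 among the members. Without the pericyte/smooth muscle-like cluster, a set of cells chosen after the data were seen, the log2 ratio of Fabp4 was -1.64 (-2.73 to -0.68).

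The other 5 members were not called. Lpl was at 965 CPM in control against 782 CPM in STAT5 KO, a log2 ratio of -0.30 (-0.42 to -0.19) that falls short of 1.5-fold. Ebf3 was at 258 and 234 CPM, with an interval of the log2 ratio from -0.36 to 0.08. Cebpb and Foxc1 were higher in STAT5 KO, with 548 and 651 CPM for Cebpb (log2 ratio 0.25, 0.11 to 0.39) and 210.4 and 259.5 CPM for Foxc1 (0.30, 0.08 to 0.52). Pparg was at 11.4 and 15.7 CPM, and its interval from -0.52 to 1.45 allows a difference in either direction.

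**Figure D2:**
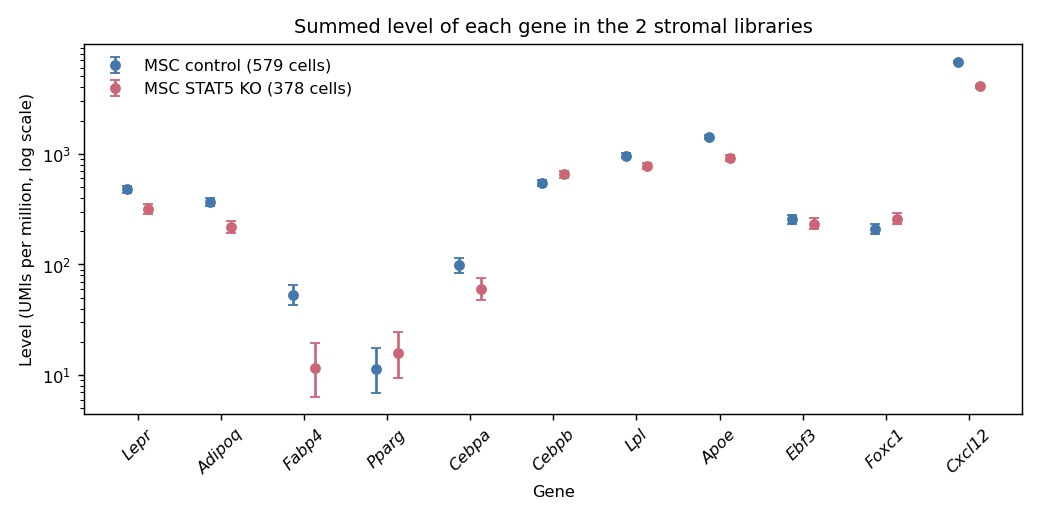
Summed level of each member and of Cxcl12 in CPM (log axis) over the kept cells of the control library (blue, 579 cells) and the STAT5 KO library (red, 378 cells), with exact Poisson 95% intervals. Lepr, Adipoq, Fabp4, Cebpa, Lpl, Apoe and Ebf3 lie lower in STAT5 KO, and Pparg, Cebpb and Foxc1 lie higher, with overlapping intervals for Pparg, Ebf3 and Foxc1.

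The make-up of the 2 libraries also differed. A chondrocyte-like cluster held 6 control cells with 3.81% of the kept UMIs, and 25 STAT5 KO cells with 24.3%. Of these, 4 control and 22 STAT5 KO cells had a barcode that occurs in both libraries. The cluster held no UMI of Lepr, Fabp4 or Pparg in either library and 1 UMI of Adipoq, but it held 252 of the 788 Cebpb UMIs and 92 of the 314 Foxc1 UMIs of the STAT5 KO library. In it Cebpb was at 268 CPM in control against 857 CPM in STAT5 KO, Foxc1 at 134 and 313 CPM, and Apoe at 14.9 CPM (1 UMI) and 313 CPM (92 UMIs). Leaving out this cluster, a choice made after the data were seen, brought the median log2 ratio of the members to -0.11, and 1 of the 10 members was then called lower, with 3.76% of 9843 genes called lower and 3.76% called higher. That member was Fabp4, with a log2 ratio of -1.85 (-2.77 to -1.03). Lepr then had a log2 ratio of -0.26 (-0.43 to -0.08) and Adipoq of -0.40 (-0.62 to -0.20), whose intervals still left out 0. Without any barcode present in both libraries the median was -0.18, and 1 member was called lower and none higher, with 4.11% and 3.82% of 9760 genes called. In neither set were Lepr, Adipoq, Cebpa and Apoe called. The part of the chondrocyte-like cells in the ratios beyond these values was not tested.

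Within the reticular-like cluster the members differed in direction, and their median log2 ratio was 0.06 (-0.02 over 4937 genes). There 1 member was called lower and 1 higher, against 3.44% of genes called lower and 3.75% called higher. The member called lower was Fabp4, at 119 and 50.7 CPM, which rests on 4 cells with a UMI in each library. The member called higher was Pparg, at 39.5 CPM (22.6 to 64.2) from 16 control UMIs and at 86.1 CPM (50.2 to 138) from 17 STAT5 KO UMIs, a log2 ratio of 1.12 (0.05 to 2.20). Lepr, at 1719 and 1469 CPM, had a log2 ratio of -0.23 (-0.43 to -0.03), and Adipoq, at 1596 and 1343 CPM, one of -0.25 (-0.46 to -0.04). Apoe was at 4824 and 4012 CPM (log2 ratio -0.27, -0.39 to -0.15), and Cebpa at 346 and 309 CPM with an interval from -0.62 to 0.28. In the same cells Cxcl12 was at 28546 and 23695 CPM (-0.27).

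Lpl, Ebf3, Cebpb and Foxc1 had higher levels in the STAT5 KO cells of that cluster, each by less than 1.5-fold. Lpl was at 3169 CPM (2998 to 3347) in control against 4038 CPM (3762 to 4328) in STAT5 KO, with a log2 ratio of 0.35 (0.22 to 0.48). Ebf3 was at 993 and 1312 CPM (0.40, 0.17 to 0.63), Cebpb at 1104 and 1505 CPM (0.45, 0.23 to 0.66), and Foxc1 at 593 and 724 CPM (0.29, -0.02 to 0.59). The sums of Cebpb leaned on few cells, since 5 of the 56 STAT5 KO cells held 43.1% of its UMIs in the cluster and 5 of the 107 control cells held 23.3%.

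**Figure D3:**
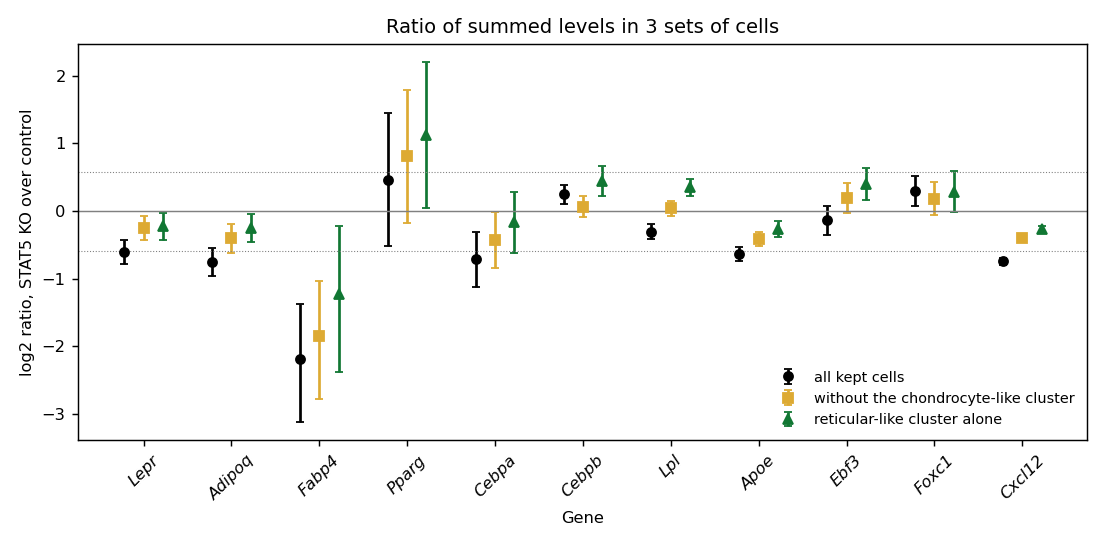
log2 ratio of the summed level, STAT5 KO over control, for each member and Cxcl12, over all kept cells (black circles), without the chondrocyte-like cluster (yellow squares) and in the reticular-like cluster alone (green triangles), with exact conditional binomial 95% intervals; dotted lines mark 1.5-fold. Lepr, Adipoq, Cebpa and Apoe lie past or at the lower dotted line over all kept cells and between the dotted lines in the other sets, and Fabp4 lies below the line in all 3.

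Per cell, counts of Lepr in the reticular-like cluster had a median of 5 UMIs in control (quartiles 2 and 10, highest 24) and of 4 UMIs in STAT5 KO (2 and 7.25, highest 18), and 93.5% and 89.3% of the cells had at least 1. Adipoq had a median of 5 UMIs (2 and 10, highest 32) and of 4 UMIs (1 and 7, highest 21), in 82.2% and 83.9% of cells. The 2 distributions overlap widely for both genes. Apoe had medians of 17 and 13 UMIs, Lpl of 8 and 11.5, Ebf3 of 3 and 4, Foxc1 of 2 and 2, and Cebpa of 1 and 1. The median cell held 3871 UMIs in control and 3450 in STAT5 KO. Pparg was seen in 14 of 107 control cells (13.1%) against 11 of 56 STAT5 KO cells (19.6%), with overlapping intervals.

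Stromal clusters were set by a low level of Ptprc, which encodes CD45. They include a shallow cluster led by Paqr9 and Rsad2 (53 and 41 cells, median 642.5 UMIs, 2.54% and 2.30% of the kept UMIs) that had no UMI of Pdgfra or Ly6a. At Leiden resolution 0.5 the erythroid-like cluster held 126 and 97 cells, the sums of this cluster and the erythroid-like one. Over all stromal clusters but the reticular-like one, 8 members were measured, of which Fabp4, Lpl, Apoe and Ebf3 were called lower and Foxc1 higher, with 9.43% and 6.06% of 8793 genes called. Foxc1 stood at 103 and 188 CPM there, and 92 of its 159 STAT5 KO UMIs were in chondrocyte-like cells. Without the chondrocyte-like cluster as well, Foxc1 was at 101 and 121 CPM and was not called. In these remaining cells Lpl was at 367 CPM in control against 201 CPM in STAT5 KO (log2 ratio -0.87, -1.19 to -0.56), and Apoe was at 482 and 289 CPM (-0.74). With Fabp4, at 42.9 and 5.42 CPM (45 and 3 UMIs), these were the 3 members called lower, with 4.53% of 8227 genes called lower and 3.76% higher. For Fabp4, 44 of the 45 control UMIs and all 3 STAT5 KO UMIs came from the pericyte/smooth muscle-like cluster with its 18 and 3 cells. Lpl thus had a lower level in these cells and a higher level in the reticular-like cells of the same STAT5 KO library. By cluster, Lpl was at 280 and 129 CPM in the cluster led by Kera, at 774 and 510 CPM in that led by Dmp1, at 412 and 49.9 CPM in the osteoblast-like cluster (46 and 3 UMIs), and at 235 and 259 CPM in the fibroblast-like cluster. Lepr, at 123 and 148 CPM over these cells, had a log2 ratio of 0.27 (-0.15 to 0.68).

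For shares of cells, each cell was thinned at random to 1000 UMIs, which kept 436 control and 279 STAT5 KO cells and left out 143 and 99 shallower ones. Each set of cells and each depth had its own random draw, and the intervals leave out differences between draws. Lepr was detected in 25.7% of control cells (21.6% to 30.1%) against 20.1% of STAT5 KO cells (15.5% to 25.3%). Adipoq was detected in 16.7% (13.4% to 20.6%) and 10.4% (7.07% to 14.6%), and Cebpa in 9.86% (7.23% to 13.1%) and 5.02% (2.77% to 8.28%). The intervals of the 2 libraries overlap for these genes, and they also overlapped for Lpl (35.3% and 29.4%), Apoe (37.2% and 31.2%), Cebpb (29.6% and 31.9%), Ebf3 (15.6% and 14.0%), Foxc1 (17.9% and 17.2%), Fabp4 (1.61% and 1.43%) and Pparg (0.459% and 2.87%). Without thinning the shares were 29.2% and 26.5% for Lepr and 15.7% and 12.4% for Adipoq. Thinned to 1500 UMIs, Lepr was detected in 29.8% and 30.6% and Foxc1 in 23.8% and 26.6%, so the order of the libraries turned for both genes, while Adipoq kept it with 20.6% and 14.3%. In stromal clusters alone, thinned to 1000 UMIs, Cebpa was detected in 8.42% and 8.58% and Pparg in 1.32% and 1.29%. Over all kept cells Cebpa was lower in STAT5 KO without thinning (14.9% and 10.8%) and at 1500 UMIs (12.7% and 8.73%). Thinned to 500 UMIs, Ebf3 was detected in 8.64% and 8.73% of the kept cells, so its order turned as well. The shares thus give no stable direction over these sets for Lepr, Cebpa, Pparg, Ebf3 or Foxc1. In the erythroid-like cluster, which should lack these genes, none of 73 control and 56 STAT5 KO cells had a UMI of any member, at median depths of 648 and 633 UMIs. A count of 0 (limit of 3 cells) allows a share of cells with a UMI of up to 4.11% in control and 5.36% in STAT5 KO at that depth, and the exact Clopper-Pearson upper limits are 4.93% and 6.38%. This limits cells with a UMI and not cells that express a gene, and Cxcl12 was seen in 3 and 1 of those cells.

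Over all kept cells, detection of the members went with that of Cxcl12 in both libraries. After thinning, 160 control cells had a Cxcl12 UMI and 276 did not, and in STAT5 KO the numbers were 89 and 190. Lepr was detected in 50% of control cells with Cxcl12 (42% to 58%) and in 11.6% of those without (8.07% to 16%). In STAT5 KO the shares were 48.3% (37.6% to 59.2%) and 6.84% (3.69% to 11.4%). Adipoq was detected in 45% of control cells with Cxcl12 and 1 of 276 without, and in 32.6% of STAT5 KO cells with Cxcl12 and none of 190 without. Of the cells with an Adipoq UMI, 72 of 73 in control and 29 of 29 in STAT5 KO also had Cxcl12, whereas for Lepr the shares were 71.4% (62.1% to 79.6%) and 76.8% (63.6% to 87.0%).

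Lpl was detected in 61.3% of control cells with Cxcl12 and 20.3% without, and in 70.8% and 10.0% in STAT5 KO. Apoe was detected in 66.3% and 20.3% in control and in 66.3% and 14.7% in STAT5 KO. Ebf3 was detected in 36.9% and 3.26%, then 39.3% and 2.11%, and Foxc1 in 35.0% and 7.97%, then 37.1% and 7.89%, in the same order. For Cebpa the shares were 19.4% and 4.35% in control and 12.4% and 1.58% in STAT5 KO. For these 5 genes the intervals of the 2 classes of cells do not overlap within either library. Cebpb had the smallest ratio between the 2 classes of cells, with 42.5% and 22.1% in control and 44.9% and 25.8% in STAT5 KO. Fabp4 was seen in 6 and 1 control cells and in 4 and 0 STAT5 KO cells, and Pparg in 2 and 0 control cells and in 7 and 1 STAT5 KO cells, in the same order.

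**Figure D4:**
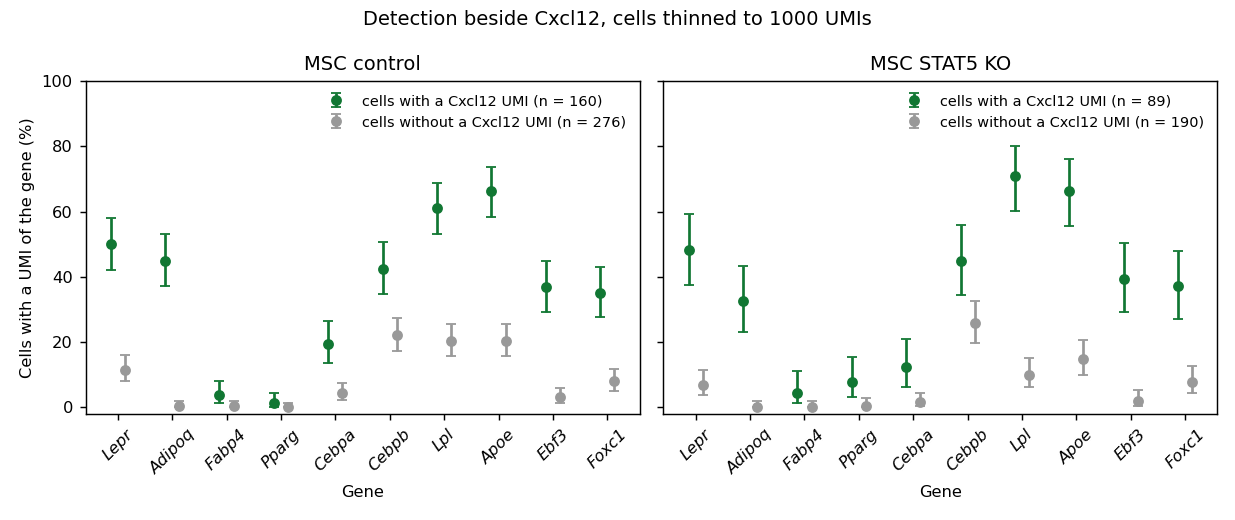
Percent of cells with a UMI of each member among cells with (green) and without (grey) a Cxcl12 UMI after thinning to 1000 UMIs per cell, in the control library (left, 160 and 276 cells) and the STAT5 KO library (right, 89 and 190 cells), with exact Clopper-Pearson 95% intervals. Green points lie above grey points for each member in both panels, and the intervals overlap for Fabp4 in both panels and for Pparg in the control panel.

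A cell with a Cxcl12 UMI had a median of 4 of the 10 members in both libraries, and 5 or more members were detected in 69 of 160 control cells (43.1%) and 37 of 89 STAT5 KO cells (41.6%). A cell without it had a median of 1 member in control and 0 in STAT5 KO, and 5 or more members were detected in 1 of 276 and none of 190. In stromal clusters other than the reticular-like one, the median was 1 member with and without a Cxcl12 UMI in both libraries. None of those cells had 5 or more members. The means there were 1.13 with and 0.923 without it in control, and 1.03 and 0.76 in STAT5 KO. Among thinned cells of the reticular-like cluster, those with a Lepr UMI had Adipoq in 62.7% (50.7% to 73.6%) of 75 control cells and 57.9% (40.8% to 73.7%) of 38 STAT5 KO cells. Those without a Lepr UMI had Adipoq in 73.9% of 23 and 73.3% of 15 cells, with overlapping intervals. Of the other members Ebf3, Apoe and Lpl were seen more often beside Lepr in both libraries. Ebf3 was seen in 60% against 47.8% of control cells and in 73.7% against 66.7% of STAT5 KO cells. Apoe was seen in 97.3% against 95.7% and in 92.1% against 86.7%. The intervals overlapped for both genes. In STAT5 KO Lpl was seen in 38 of 38 cells with Lepr and 11 of 15 without, Cebpa in 14 and 1, and Foxc1 in 27 and 7, whereas in control these 3 genes had shares within 2 points of each other.

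In the KLS libraries, which are blood progenitors, Lepr was not detected in control and gave 9 UMIs in 3 of 6726 STAT5 KO cells. Ebf3 gave 0 and 2 UMIs, the latter in 1 cell, and Adipoq 4 and 1. Cebpa, which also directs myeloid differentiation, was at 38.2 and 40.3 CPM, Cebpb at 59.3 and 56.5 CPM, and Apoe at 176.8 and 209.0 CPM. Levels of Lpl (1.08 and 1.94 CPM), Fabp4 (0.782 and 0.628 CPM), Pparg (0.196 and 0.301 CPM) and Foxc1 (0.039 and 0.079 CPM) were far below those of the MSC libraries.

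Other genes of these programs were read from lists. Of 53 further adipocyte and lipid genes 41 had at least 20 UMIs over both MSC libraries, and 3 were called lower and 2 higher over all kept cells, near the 6.32% and 5.12% over all genes, with a median log2 ratio of -0.07, close to that over all genes. Lower were Plin2, a lipid droplet coat gene (27.3 and 13.2 CPM), Dgat2, which makes triglyceride (19.9 and 6.61 CPM), and Cdh13, a receptor of adiponectin (61.4 and 29.8 CPM). Higher were Car3 (10.2 and 24.0 CPM) and Lpin1 (13.1 and 24.0 CPM). In the reticular-like cluster 18 genes of the list were measured, and Acly, which makes acetyl-CoA for lipid synthesis, was called lower (28 UMIs and 1 UMI). Of 35 reticular genes other than the members 34 were measured and 10 were called lower, where 6.32% of all genes were (Cxcl12, Il34, Pdgfrb, Cxcl14, Agt, Ms4a4d, Igfbp4, Tnc, H19 and Gdpd2), with a median of -0.41. Without the chondrocyte-like cluster 3 of them were called lower, where 3.76% of all genes were, and the median was -0.10. Spp1 was called higher, from 880 to 2964 CPM, but in the reticular-like cluster it was called lower, with 2670 and 1302 CPM. In that cluster 4 of 33 reticular genes were called lower (Il34, Ms4a4d, Spp1 and Tnc) and Grem1, an antagonist of bone morphogenetic proteins, was called higher (477 and 750 CPM), where 3.44% and 3.75% of all genes were called lower and higher.

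Of 8 leptin signalling genes Lep, the ligand, had no UMI in either library, and 7 were measured. Of these, Ptpn1, a phosphatase that dampens the receptor, was called higher (69.4 and 106 CPM), where 5.12% of all genes were. Without the chondrocyte-like cluster Ptpn1 was not called (log2 ratio -0.03). Socs3, the feedback inhibitor, was at 549 and 683 CPM and Jak2 at 41.5 and 47.9 CPM, both uncalled. In the reticular-like cluster 6 of these genes were measured, and Stat3, the main transducer of the receptor, was called higher, where 3.75% of genes were. It had 284 and 441 CPM (log2 ratio 0.63, 0.22 to 1.05). Over all kept cells none of the 6 measured relatives of the factor genes was called. Of the 2 measured relatives of Fabp4 and Apoe, Apod was called lower (1167 and 440 CPM), where 6.32% of all genes were. With so few genes in each list, 1 call is not a result about the list. Apod was among the leading genes of the cluster led by Dmp1 and Ccl11. That cluster held 12.1% of the kept control UMIs and 7.30% of the STAT5 KO ones, and its part in the Apod ratio was not tested.

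The genes whose level was most like that of a member over 20 groups of cells (1 cluster of 1 library, at least 10 cells) are given as a description over 4566 genes, with groups that share libraries. For Lepr these were Bmp4 (Pearson's r 0.92), Gas6, Ghr, Ptprg and Igfbp5 (0.86). For Adipoq they were Esm1 (0.98), Serpina12, Kng1, Serpina3g and Il1rn (0.97), and for Fabp4 Rgs16 (0.87), Adgrf5, Gdf15, Notch3 and Il34 (0.82). None of the 15 was itself a member. Adipoq lay almost wholly in the reticular-like cluster, so its r rests mainly on the groups of that cluster. For Fabp4, r rests mainly on the same groups and on the 18 control cells of the pericyte/smooth muscle-like cluster. The 3 STAT5 KO cells of the latter were too few to form a group.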

How the data were processed

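The deposited matrices hold raw UMI counts per gene and cell barcode, made by the authors with Cell Ranger on GRCm38/mm10 per the submitters' processing notes (software version 3.1.0 per the file headers); cell calling and the strand rule are not given in the sources used here, and no free RNA was removed. Members were matched by symbol (coordinates: GENCODE M21, GRCm38). Cells were kept with at least 200 genes, at most 10% mitochondrial UMIs, no larger copy of the barcode in the other MSC library, and no high Scrublet score (0.8% of barcodes per 1000 barcodes, which marked 4 control and 1 STAT5 KO barcodes). The automatic Scrublet threshold marked 0 and 1 barcodes. For KLS libraries the larger copy was looked for in any other library.

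Both MSC libraries were clustered together (scanpy 1.11.5, 2000 variable genes without the members, 30 components, 15 neighbours, Leiden resolution 1, igraph 0.11.9, seed 0). A cluster was named from at least 3 listed markers among its 10 leading genes. A cluster that met the rule for neutrophils and monocytes was led by immunoglobulin genes and is not called by that name in the text. Clusters counted as stromal had Ptprc under 20% of the KLS level and were not named erythroid-like, a rule that lets in a shallow cluster led by Paqr9 and Rsad2 with no Pdgfra UMI. UMIs were summed over cells and scaled to CPM (scipy 1.17.1). The ratio step was tested on simulated counts. The text names the members, Cxcl12, list genes that were called, list genes for contrast, and the 5 genes most like Lepr, Adipoq and Fabp4 in log2(CPM + 10). Members, lists and markers were chosen with earlier results of these data known. RefSeq promoter windows matched 8 of 10 members. Each group being 1 library, no replicate error exists.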

Additional observations from a re-analysis of the deposited data

How the results depend on the processing

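Over 16 other settings the median log2 ratio of the members stayed below 0 except with each stromal cluster given its control share in both libraries, where it was 0.00010 and 1 member was called lower. It was -0.18 without any barcode present in both libraries and -0.11 without the chondrocyte-like cluster, each with 1 member called lower. Averaging the CPM of single cells also left 1 called, and TMM scaling (edgeR 4.0.16) left 3, with Lepr at -0.55 and Apoe at -0.58. With all barcodes kept 4 were called lower, and Lepr, at -0.58, fell just short of 1.5-fold. The weighted and reduced sets by construction hold fewer STAT5 KO chondrocyte-like cells, and otherwise the cause was not tested. Of the members, Fabp4 (-2.35 to -1.23), Lepr (-0.63 to -0.17), Adipoq (-0.80 to -0.26), Apoe and Cebpa kept their sign in all of these settings, as did Foxc1 and Pparg, while Lpl (-0.34 to 0.17), Ebf3 (-0.20 to 0.34) and Cebpb (-0.08 to 0.30) did not. The median gap in detection between cells with and without Cxcl12 was 30.3 points in control and 30.9 in STAT5 KO; it was 39.2 in control without thinning, and 42.9 in control and 44.4 in STAT5 KO when 3 Cxcl12 UMIs were asked for. With a pseudocount of 10 CPM 1 adipocyte and lipid gene was called higher, not 2. No paired analysis was possible because each group has 1 library. Fewer than 100 UMIs stand behind Fabp4 and Pparg in each library, which limits both.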
